A study of Mus musculus with 16 samples.

Results

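The single deletion labelled c.del was compared with its parental line, F121-9, by sequencing of nascent RNA in mouse embryonic stem cells. The c.del group held 2 libraries, c.del.B11 (replicate 1) and c.del.A12 (replicate 2), and the F121-9 group held 2 libraries, R1 and R2, of the 16 libraries in the series. The genes compared were the 23825 autosomal gene symbols (chromosomes 1 to 19) of 24978 in the deposited table, each taken at its widest line. Of these, 22659 lay outside chromosome 3. The 1166 genes of chromosome 3 were kept apart, because 1 c.del library had an altered share of the parental copies there. F121-9 is a cas/129 hybrid line, so every autosome is present as a 129 copy and a castaneus (cast) copy. These can be told apart by sequence variants. The c.del cells come from this hybrid line, but their copy shares were not those of F121-9 throughout. The shares on chromosomes 3 and 8 in 1 c.del library, and on the X in both, differed from F121-9, as given by chromosome below. Cells of both groups were kept in 2i plus LIF, inhibitors and a cytokine that hold embryonic stem cells in the naive state, on 1% gelatin. RNA made during 30 min in 2 mM bromouridine was captured with an antibody and sequenced (Bru-seq). The codes of the c.del libraries may name separate clones. The labels state neither that, nor where site c lies, nor which copy of it was deleted.

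Replication of mammalian DNA runs in large domains, each with its own time in S phase, and domains that replicate early tend to hold transcribed genes. The lettered sites of this series, a, b and c, are known from the study as cis elements in the replication domain of Dppa2 and Dppa4 on chromosome 16. Dppa2 and Dppa4 encode partner nuclear proteins of early embryos, embryonic stem cells and germ cells. Morc1, the next large gene, encodes an ATPase needed for transposon silencing in the mouse male germ line.

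The level of a gene was the mean of its counts per 1000000 (CPM) on the 129 copy and on the cast copy, which in nascent RNA sums synthesis over all cells of a culture, so that fewer cells with a transcript and less transcript per cell cannot be told apart. Allele-assigned reads over 1 line per gene in units of 1000000 came to 21.6 and 15.7 in c.del and to 22.3 and 14.2 in F121-9. Tests were run on the 13583 autosomal genes with a mean of at least 0.2 CPM over the 16 libraries, 648 of them on chromosome 3. The linear model of limma took in the 8 libraries of the 4 groups with 2 libraries each, and adjusted p-values were by Benjamini and Hochberg over all 13583 genes, with 0.05 as the threshold.

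The c.del libraries stood apart from each other more than the F121-9 libraries did. Of 10316 genes with a mean of at least 1 CPM in the 4 libraries, 24.1% differed by more than 1 on the log2 scale between the c.del libraries, against 6.22% between the F121-9 libraries. Relative to the F121-9 mean, 114 genes lay more than 1 higher in both c.del libraries and 130 more than 1 lower in both. Another 1772 were that far away in c.del replicate 2 alone, 634 in c.del replicate 1 alone, and 99 lay that far away in opposite directions. The shift in c.del replicate 2 followed gene width, as the plot of level by gene width shows. In that library the median log2 difference from F121-9 was 1.06 for genes up to 5 kb wide and -0.28 for genes over 500 kb. In c.del replicate 1 the same medians were 0.05 and -0.37. A shift of this kind was also seen outside c.del. In the other 7 libraries of the second run of sample numbers the median for genes up to 5 kb was 0.35 (b.del) to 1.00 (a.del). In the first run, outside c.del and F121-9, it was 0.10 (680kinv) to 0.50 (abc.del replicate 1). Of the 1772 genes away in replicate 2 alone, 50.6% were under 10 kb wide, against 18.4% of all 10316. Over all tested genes the median log2 difference between c.del and F121-9 was 0.11 as deposited, -0.07 after median centring and -0.02 after centring within bins of gene width, and the gene values below are to be read against these.

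**Figure D1:**
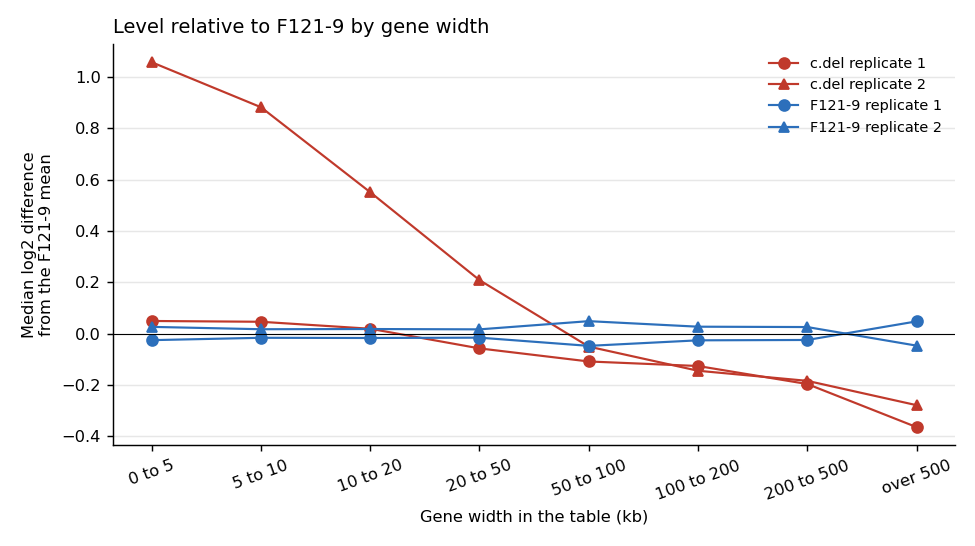
Median log2 difference of each library from the mean of the 2 F121-9 libraries (vertical axis) for genes grouped by their width in the table in kb (horizontal axis), with c.del in red and F121-9 in blue. The c.del replicate 2 line runs between 1.06 for the narrowest and -0.28 for the widest genes, while c.del replicate 1 runs between 0.05 and -0.37.

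Copy shares in c.del were altered on chromosomes 3, 8 and X. On chromosome 3 the median share of the 129 copy over 524 genes was 32.9% in c.del replicate 1 and 52.3% in c.del replicate 2, against 52.7% and 53.0% in F121-9. The low share of replicate 1 spanned every 10 Mb bin of the chromosome, at 31.1% to 36.7%. There the cast copy of replicate 1 was 0.93 higher on the log2 scale than in F121-9 at the median, the 129 copy stood at -0.19, and the mean of both copies was 0.47 higher. On chromosome 8 the median share was 47.1% in c.del replicate 1 and 51.1% in c.del replicate 2, against 51.2% and 52.9% in F121-9. On all other autosomes the medians lay between 51.1% and 53.6% in c.del, against 51.0% and 53.8% in F121-9. On the X, which was left out of the tests, 99.8% of reads in c.del replicate 1 (95% Wilson interval 99.78% to 99.8%) and 13.2% in c.del replicate 2 (13.06% to 13.28%) came from 129, against 49.7% (49.61% to 49.82%) and 52.6% (52.47% to 52.74%) in F121-9. These intervals cover counting error only. The X shares are of pooled reads, unlike the medians over genes given for the autosomes. As a median over X-linked genes the 129 share was 100% in c.del replicate 1 and 0.18% in c.del replicate 2, against 49.2% and 52.0% in F121-9.

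**Figure D2:**
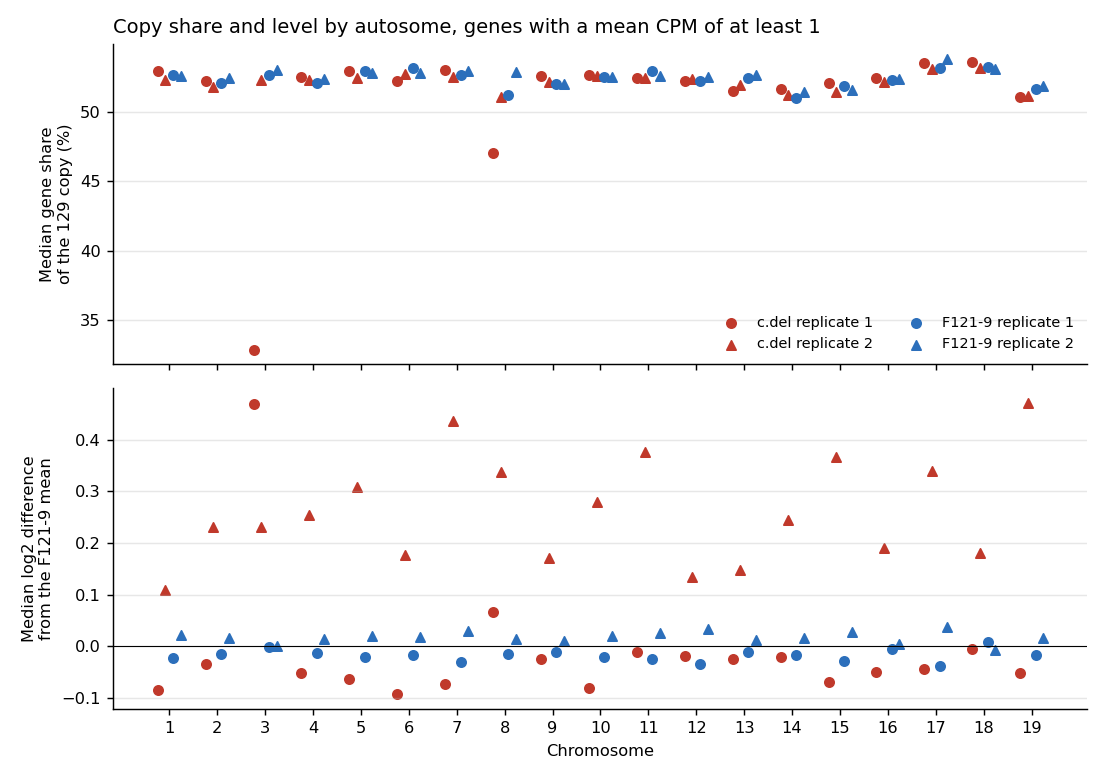
Median over genes of the 129 copy's share in percent (upper panel) and median log2 difference from the F121-9 mean (lower panel) for each autosome, with c.del in red and F121-9 in blue. Replicate 1 of c.del stands alone at 32.9% on chromosome 3 and at 47.1% on chromosome 8, and replicate 2 of c.del lies between 0.11 and 0.47 above F121-9 on every autosome.

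At the Dppa2 and Dppa4 locus the 129 copy of Morc1 was lower in both c.del libraries than in both F121-9 libraries, and the cast copy was not. Morc1 (chr16:48431237-48630905, plus strand, mm10) had 90.0 and 87.7 CPM on the 129 copy in c.del, from 2228 and 1512 reads, against 251 and 294 CPM in F121-9, from 6444 and 4796 reads. The means were 88.9 ± 1.66 CPM in c.del and 272 ± 30.6 CPM in F121-9 (SD, n = 2 each), a level 3.07-fold higher in F121-9. On the cast copy Morc1 had 337 and 250 CPM in c.del, against 299 and 295 CPM in F121-9, and the groups overlapped.

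The limma log2 difference of Morc1 on the 129 copy was -1.61 (SE 0.31, adjusted p = 0.243), which did not pass the threshold over 13478 genes tested on that copy. The edgeR quasi-likelihood test gave an adjusted p of 0.136, and over 17 alternative settings the adjusted p ran between 0.00531 and 0.992. With the deposit block, one of the 2 runs of sample numbers in the series, as a covariate in limma the adjusted p was 0.00531 and the difference -1.84. In that fit only c.del and ab.del have libraries in both runs, so the block term rests on them alone. It therefore takes up part of the spread between the c.del libraries as an effect of the run. The difference between the copies, 129 minus cast, was -1.58 in limma (SE 0.43, unadjusted p = 0.0123, adjusted p = 0.752). As the mean of both copies, Morc1 had 213 and 169 CPM in c.del, against 275 and 295 CPM in F121-9, a log2 difference of -0.58 (SE 0.19, limma adjusted p = 0.525).

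The lower 129 level was seen in each measured segment at Morc1, which leave the first bases of the gene and a stretch between the second and the third segment uncovered. The authors' table holds 4 drawn segments at Morc1, which in chromosome order are numbered 1 to 4. Segment 1 (chr16:48437302-48511046) had 39.4 and 35.7 CPM on the 129 copy in c.del, against 87.0 and 105 CPM in F121-9. Segment 2 (chr16:48511047-48581359) had 44.5 and 41.3 CPM in c.del, against 95.6 and 108 CPM in F121-9. The F121-9 mean was 2.56-fold and 2.37-fold that of c.del in these segments.

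Segment 3 (chr16:48620368-48630905), at the end of the gene, had 4.49 and 8.12 CPM on the 129 copy in c.del, against 18.7 and 20.4 CPM in F121-9. Segment 4 (chr16:48630906-48655838), which lies beyond the annotated end, had 8.53 and 6.73 CPM in c.del, against 30.2 and 25.1 CPM in F121-9, 3.63-fold higher in F121-9. The groups were apart in every segment on the 129 copy. On the cast copy they overlapped in segments 1 to 3, and in segment 4 the values were 18.6 and 11.5 CPM in c.del, against 23.5 and 20.7 CPM in F121-9.

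**Figure D3:**
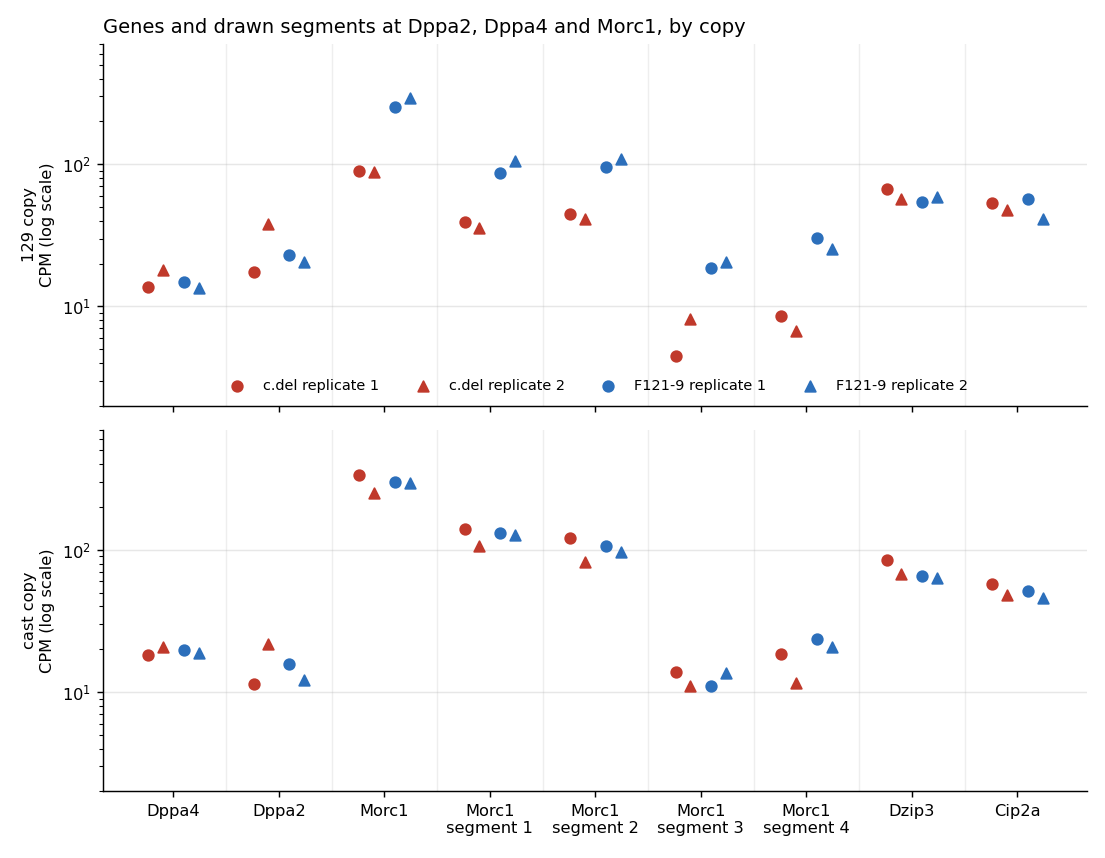
CPM on a log scale for genes and authors' drawn segments around Dppa2, Dppa4 and Morc1, on the 129 copy (upper panel) and the cast copy (lower panel), with 1 point per library, c.del in red and F121-9 in blue. On the 129 copy the points of Morc1 and its 4 segments separate, with Morc1 at 90.0 and 87.7 CPM in c.del and 251 and 294 CPM in F121-9, while those of Dppa4, Dppa2, Dzip3 and Cip2a overlap.

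Dppa4 and Dppa2 showed no such separation on either copy. Dppa4 (chr16:48283735-48294292, plus strand) had 13.7 and 18.2 CPM on the 129 copy in c.del, against 14.8 and 13.5 CPM in F121-9, and 18.3 and 20.8 CPM on the cast copy in c.del, against 19.6 and 18.7 CPM in F121-9. Dppa2 (chr16:48310274-48319513, plus strand) had 17.5 and 38.2 CPM on the 129 copy in c.del, against 23.0 and 20.4 CPM in F121-9. On the cast copy Dppa2 had 11.4 and 21.6 CPM in c.del, against 15.8 and 12.1 CPM in F121-9. In every one of these sets the F121-9 values fell between the c.del values or overlapped them, and the sign of the mean difference changed with the scaling. Both genes are about 10 kb wide, and c.del replicate 2, in which genes of that width were high, gave the higher c.del value each time.

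No gene within 1 Mb, Morc1 included, passed in limma on either copy. Dzip3, which encodes a RING-type ubiquitin ligase, had 67.1 and 56.7 CPM on the 129 copy in c.del, against 53.9 and 59.1 CPM in F121-9, and 85.1 and 67.7 CPM on the cast copy in c.del, against 65.7 and 63.7 CPM in F121-9. Cip2a, which encodes an inhibitor of the phosphatase PP2A, had 53.5 and 47.3 CPM on the 129 copy in c.del, against 56.7 and 41.1 CPM in F121-9. On the cast copy it had 57.6 and 48.4 CPM in c.del, against 51.3 and 46.1 CPM in F121-9. Trat1, an adaptor of T-cell receptor signalling, had 1.94 and 0.754 CPM on the 129 copy in c.del, against 0.973 and 0.674 CPM in F121-9. The unnamed gene 6430553K19Rik (chr16:48122074-48158499) had no 129 read in either c.del library, against 10 and 6 reads in F121-9, and on the cast copy 3 and 6 reads in c.del, against 25 and 6 reads in F121-9. At 1 to 5 Mb from the locus the median log2 difference over 34 genes was -0.31, with 8 higher and 13 lower without overlap, against 23.3% higher and 14.8% lower over all tested genes, and at 5 to 20 Mb it was 0.01 over 123 genes.

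The 129 copy of Morc1 took different levels in the other edited lines, which are set beside c.del here as values. With 90.0 and 87.7 CPM, c.del lay between b.del at 30.1 CPM and ac.del at 115 CPM. Also below c.del were the 17.8 CPM in bc.del, 17.3 and 34.1 CPM in ab.del, and 3.70 and 4.19 CPM in abc.del. Also above it were the 468.5 CPM in a.del and the 251 and 294 CPM in F121-9. The cast copy of Morc1 was high in a.del as well, at 635 CPM, against 299 and 295 CPM in F121-9. The 129 copy of Dppa2 gave another order. At 17.5 and 38.2 CPM, c.del was in the range of a.del (33.6 CPM), b.del (33.1 CPM) and bc.del (20.5 CPM). On the 129 copy ac.del (0.888 CPM), ab.del (0.104 and 0.129 CPM) and abc.del (0.345 and 0.46 CPM) were far lower. Dppa4 on the 129 copy had 13.7 and 18.2 CPM in c.del and 13.7 CPM in ac.del, and at most 1 read in each ab.del and abc.del library.

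**Figure D4:**
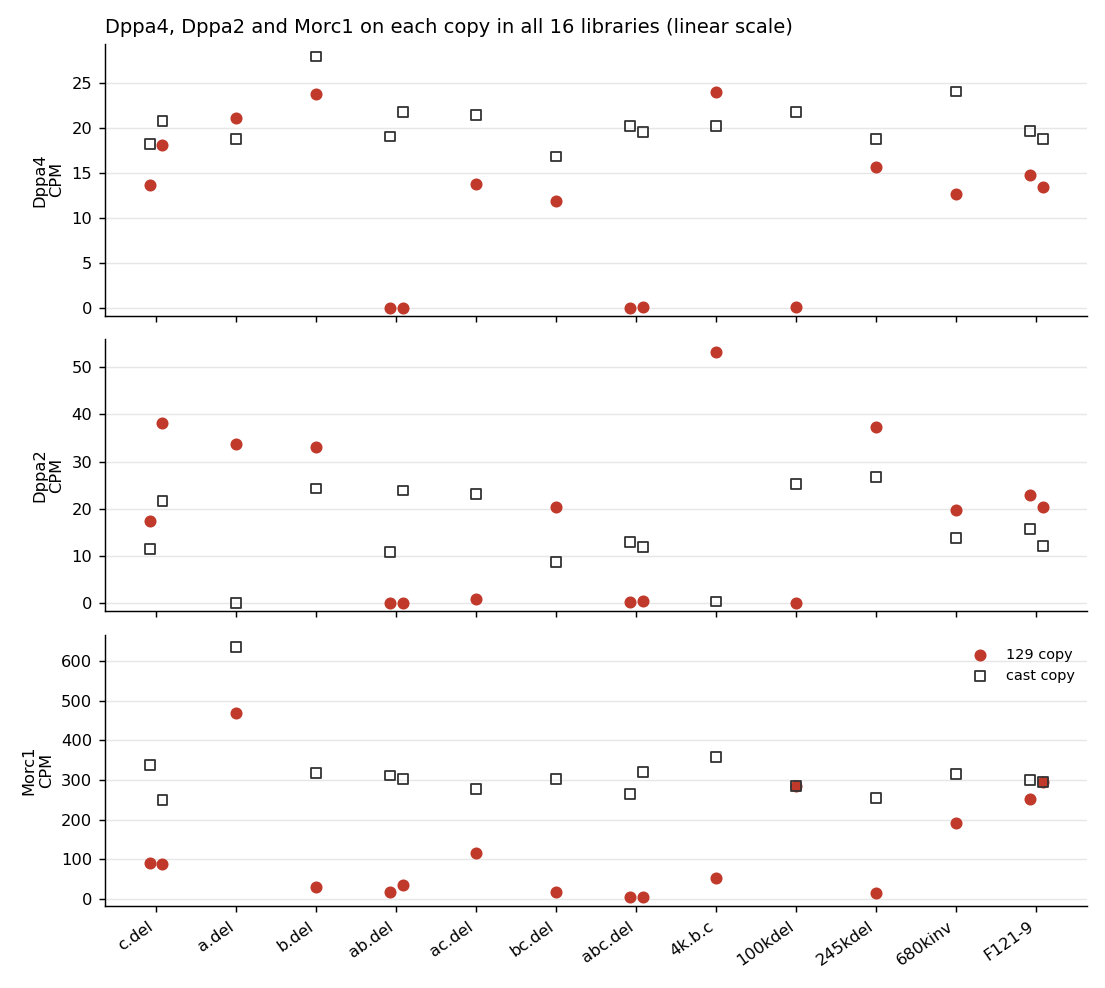
CPM (linear scale) of Dppa4, Dppa2 and Morc1 in all 16 libraries, grouped by label on the horizontal axis, with the 129 copy as red dots and the cast copy as open squares. For Morc1 on the 129 copy, c.del stands at 90.0 and 87.7 CPM, above abc.del at 3.70 and 4.19 CPM and below F121-9 at 251 and 294 CPM, while for Dppa4 and Dppa2 the c.del dots overlap those of F121-9.

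A term for site c was also fitted over the 8 lettered libraries that the comparison above leaves out of its contrast (abc.del, ab.del, ac.del, bc.del, a.del and b.del, with terms for a and b). No gene passed the adjusted threshold in limma or in edgeR. At an unadjusted p under 0.05 there were 533 genes in limma (3.92%) and 412 in edgeR. Morc1 as the mean of both copies had a site c term of -0.49 (SE 0.22, limma unadjusted p = 0.0511, adjusted p = 0.911). For Dppa2 the term was -0.53 (SE 0.28, limma adjusted p = 0.911).

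Across the autosomes no gene passed the adjusted threshold in limma for c.del against F121-9, and the genes with the smallest p-values are therefore given as values. At an unadjusted p under 0.05 there were 621 higher genes (4.57%) and 499 lower genes (3.67%). Groups that did not overlap were seen in 3160 genes higher in c.del (23.3%) and in 2016 lower (14.8%). Outside chromosome 3 the unadjusted shares were 4.11% higher and 3.72% lower. The edgeR test passed 1 gene (0.00736%), Cox7b2, which was lower. DESeq2 passed 49 higher (0.361%) and 110 lower (0.81%), and limma with the deposit block as covariate passed 54 higher and 99 lower. The 20 genes named below outside chromosome 3 were chosen as the 10 in each direction with the smallest p among those without overlap and a mean of at least 1 CPM, so their separation is not a finding in itself. Their limma adjusted p-values ran between 0.16 and 0.32. DESeq2 passed 19 of the 20, and the block covariate all 20. The block covariate takes up part of the spread between the c.del libraries, as given for Morc1.

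The lower genes with the smallest p-values included a testis-enriched and an oocyte-expressed gene. Cox7b2 (chr5:71442823-71548205, minus strand), a testis-enriched relative of a cytochrome c oxidase subunit, had 1.30 and 3.10 CPM in c.del, against 30.1 and 33.2 CPM in F121-9. It was 14.4-fold higher in F121-9, with a log2 difference of -3.90 (SE 0.50, limma adjusted p = 0.16, edgeR adjusted p = 0.0237, range over 24 alternatives 8.37e-21 to 0.972). Both copies were low in c.del, with 1.86 and 4.35 CPM on 129, against 44.9 and 47.2 CPM in F121-9, and 0.745 and 1.85 CPM on cast, against 15.3 and 19.1 CPM in F121-9. Nlrp4c (chr7:6045161-6105149), of an oocyte-expressed gene family whose close copies can share reads, had 0.202 and 0.147 CPM in c.del, against 5.77 and 5.03 CPM in F121-9, from 10 and 5 reads over both copies in the c.del libraries. The predicted genes Gm10754 and Gm36229 on chromosome 10 had 0.386 and 0.444 CPM and 1.38 and 2.00 CPM in c.del, against 5.54 and 9.14 CPM and 14.4 and 17.5 CPM in F121-9. In all 4 genes the c.del values lay well under the F121-9 values.

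Cox7b2, Csrnp3 and Sycp1, with the smallest p-values in limma among the named lower, higher and lower chromosome 3 genes, are shown with their promoters, because both copies of each stood on the same side of F121-9. The windows cover 250 bases before to 50 bases after the start in RefSeq (GRCm38.p6), 5′ to 3′ on the gene's strand, and capitals mark CpG dinucleotides, the sites of DNA methylation.
Cox7b2, chr5:71548156-71548455, minus strand: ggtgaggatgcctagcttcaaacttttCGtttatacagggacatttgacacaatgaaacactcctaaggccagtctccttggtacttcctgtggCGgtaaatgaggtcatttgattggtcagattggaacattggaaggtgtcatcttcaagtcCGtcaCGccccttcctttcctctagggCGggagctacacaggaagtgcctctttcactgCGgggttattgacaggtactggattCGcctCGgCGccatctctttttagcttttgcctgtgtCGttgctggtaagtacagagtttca
Csrnp3, chr2:65845517-65845816, plus strand: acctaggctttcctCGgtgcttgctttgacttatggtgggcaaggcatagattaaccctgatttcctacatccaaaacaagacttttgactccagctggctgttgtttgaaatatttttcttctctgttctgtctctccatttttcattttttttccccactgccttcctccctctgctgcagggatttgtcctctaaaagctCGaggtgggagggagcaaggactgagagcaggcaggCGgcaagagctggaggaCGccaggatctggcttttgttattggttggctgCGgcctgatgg
Sycp1, chr3:102936051-102936350, minus strand: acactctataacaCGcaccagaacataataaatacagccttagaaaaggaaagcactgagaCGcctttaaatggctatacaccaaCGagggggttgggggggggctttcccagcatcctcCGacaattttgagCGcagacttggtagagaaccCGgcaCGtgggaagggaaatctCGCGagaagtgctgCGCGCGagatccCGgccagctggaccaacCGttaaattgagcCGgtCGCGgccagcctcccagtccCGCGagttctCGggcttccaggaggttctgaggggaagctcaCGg
The Cox7b2 window held 10 CpG, the Csrnp3 window 5 and the Sycp1 window 21. The median over 31396 autosomal windows of the same length was 7, and 25.4% of windows held 21 or more. The letters CACGTG, the palindromic E-box, were found in the Sycp1 window at base 157 and in neither of the others, and 7.14% of all windows held them. RefSeq windows were matched for 23 of the 33 genes named at the locus, outside chromosome 3 and on chromosome 3.

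Among the other lower genes, Abca1, the exporter of cellular cholesterol, had 35.5 and 38.8 CPM in c.del, against 86.4 and 113 CPM in F121-9. Hipk2, a kinase that phosphorylates p53, had 25.97 and 19.5 CPM in c.del, against 58.9 and 57.1 CPM in F121-9. Nell2, a secreted neuronal protein, had 8.69 and 11.3 CPM in c.del, against 32.5 and 32.5 CPM in F121-9. The F121-9 mean of these 3 genes was 2.55-fold to 3.25-fold that of c.del. Tmem117, a membrane protein gene, had 136 and 91.7 CPM in c.del, against 270 and 355 CPM in F121-9. Vopp1 had 4.49 and 5.70 CPM in c.del, against 16.3 and 19.3 CPM in F121-9. Rnf130, a RING-type ubiquitin ligase gene that overlaps Mir340 on its strand, had 28.1 and 26.8 CPM in c.del, against 58.8 and 67.6 CPM in F121-9. Nell2 and Tmem117 are neighbours on chromosome 15, at chr15:95219440-95528758 and chr15:94629185-95096097.

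The higher genes follow in the same way. Csrnp3 (chr2:65845767-66031546, plus strand), a cysteine and serine rich nuclear protein, had 304 and 237 CPM in c.del, against 104 and 102 CPM in F121-9, a 2.62-fold higher level with a log2 difference of 1.38 (SE 0.18, limma adjusted p = 0.16). On the 129 copy it had 166 and 104 CPM in c.del, against 29.9 and 33.4 CPM in F121-9, and on the cast copy 443 and 371 CPM in c.del, against 179 and 171 CPM in F121-9. Ebf1, a factor of B-cell development, had 45.8 and 45.7 CPM in c.del, against 9.92 and 16.3 CPM in F121-9. The c.del mean was 3.49-fold that of F121-9 for Ebf1.

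Runx1t1, a co-repressor, had 77.0 and 63.9 CPM in c.del, against 28.9 and 28.2 CPM in F121-9. Tox, a factor of T-cell development, had 13.8 and 17.7 CPM in c.del, against 3.92 and 2.94 CPM in F121-9. Bach2, a repressor in lymphocytes, had 32.7 and 32.2 CPM in c.del, against 14.7 and 11.6 CPM in F121-9. These 3 genes were 2.46-fold to 4.60-fold higher in c.del. Klf12, a zinc finger repressor, had 448 and 350 CPM in c.del, against 221 and 206 CPM in F121-9, the smallest of these fold differences at 1.87-fold.

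The other 4 higher genes encode structural and transport proteins and Prune2. Vim, the intermediate filament protein vimentin, had 15.4 and 17.9 CPM in c.del, against 4.93 and 5.48 CPM in F121-9. Cgnl1, a protein of cell junctions, had 14.7 and 24.6 CPM in c.del, against 5.21 and 4.09 CPM in F121-9. Kifc3, a minus-end directed kinesin on chromosome 8, had 4.44 and 6.40 CPM in c.del, against 1.14 and 1.25 CPM in F121-9. Prune2 had 71.8 and 62.2 CPM in c.del, against 30.7 and 21.8 CPM in F121-9. Vim, at 8516 bases, is the narrowest of the 20 genes, and its log2 difference was 1.66 as deposited and 1.16 after centring within bins of gene width.

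**Figure D5:**
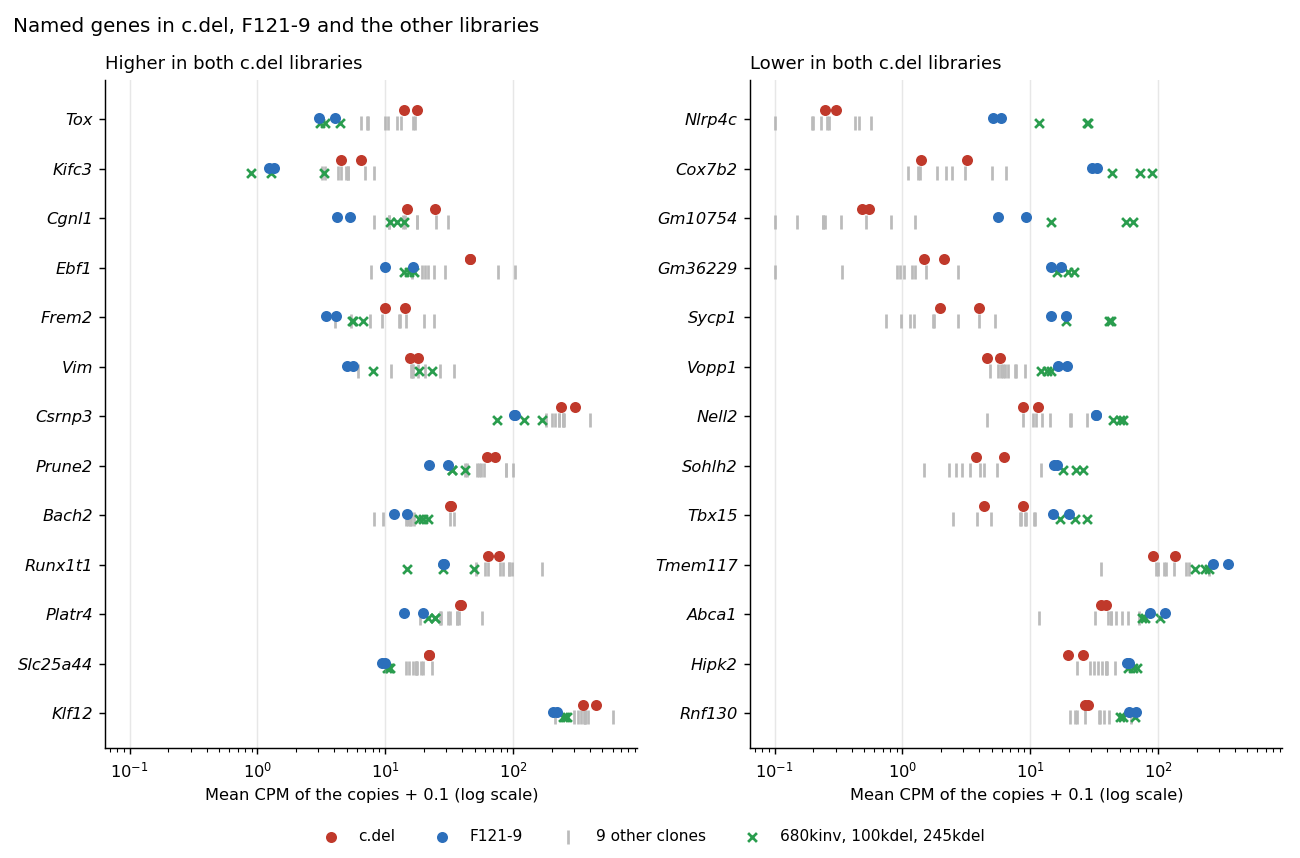
Mean CPM of both copies plus 0.1 (log scale) of the 26 genes named by p-value, those higher in c.del at left and those lower at right, with c.del in red above F121-9 in blue, and the other libraries as grey bars and green crosses beneath. The red and blue points of every gene are apart because the genes were chosen so, as for Cox7b2 at 1.30 and 3.10 CPM in c.del and 30.1 and 33.2 CPM in F121-9.

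The lettered deletion clones are given by whether their label holds the letter c, with the lines 680kinv, 100kdel, 245kdel and 4k.b.c apart. Cox7b2 had 1.01 to 4.89 CPM in the 4 other lettered libraries with c in the label and 1.76 to 3.01 CPM in the 4 without it, and 43.3, 90.0, 72.3 and 6.31 CPM in 680kinv, 100kdel, 245kdel and 4k.b.c. Csrnp3 had 211 to 249 CPM in the libraries with c and 182 to 402 CPM in those without. In 680kinv, 100kdel, 245kdel and 4k.b.c it had 169, 75.1, 123 and 203 CPM. Vim had 15.8 to 26.6 CPM with c and 10.9 to 34.2 CPM without, and 7.95, 18.3, 22.9 and 6.04 CPM in 680kinv, 100kdel, 245kdel and 4k.b.c. The c.del values lay within or near the ranges of the lettered clones with and without c in these genes. In the site c fit over those 8 libraries the terms were -0.41 for Cox7b2 (SE 0.45, limma adjusted p = 0.917) and -0.12 for Csrnp3 (SE 0.16, limma adjusted p = 0.924). Ebf1 had 15.98 to 29.1 CPM with c and 21.6 to 103 CPM without, and 14.0, 16.7, 15.2 and 7.57 CPM in 680kinv, 100kdel, 245kdel and 4k.b.c. Its site c term was -1.12 (SE 0.35, limma unadjusted p = 0.00933, adjusted p = 0.911), opposite in sign to its difference between c.del and F121-9.

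The c.del libraries differed widely from each other in some genes. These genes were picked after their values were seen. Tmem132d, a membrane protein gene, had 9.08 CPM in c.del replicate 1 and 52.5 CPM in c.del replicate 2, against 144 and 124 CPM in F121-9. The long non-coding gene 2610307P16Rik had 120.7 CPM in c.del replicate 1 and 27.7 CPM in c.del replicate 2, against 12.5 and 17.9 CPM in F121-9. Without c.del replicate 2, these and Cox7b2 were the 3 genes past the limma threshold. Lef1, a factor of Wnt signalling on chromosome 3, had 134 CPM in c.del replicate 1 and 8.14 CPM in c.del replicate 2, against 10.5 and 20.4 CPM in F121-9.

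On each copy alone no gene passed in limma either. Of 13478 genes on the 129 copy, 594 higher (4.41%) and 437 lower (3.24%) had an unadjusted p under 0.05, and edgeR passed 2 lower genes (0.0148%), Cox7b2 and Nell2. Of 13359 genes on the cast copy, 620 higher (4.64%) and 492 lower (3.68%) had an unadjusted p under 0.05, and edgeR passed 4 lower genes (0.0299%), Cox7b2, Tmem132d, Abca1 and Sycp1. Nell2 on the 129 copy had 4.36 and 6.67 CPM in c.del, against 30.6 and 29.0 CPM in F121-9. Abca1 on the cast copy had 19.4 and 23.1 CPM in c.del, against 75.4 and 119 CPM in F121-9. For the difference between the copies no gene passed, and 849 (6.25%) had an unadjusted p under 0.05 in limma.

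On chromosome 3, where c.del replicate 1 had a high cast copy, 266 of 648 tested genes were higher in c.del without overlap (41.0%) and 64 were lower (9.88%), against 22.4% and 15.1% on the other autosomes. No gene passed in limma or edgeR, 90 higher (13.9%) and 18 lower (2.78%) had an unadjusted p under 0.05 in limma, and DESeq2 passed 12. Sycp1 (chr3:102818499-102936100, minus strand), the central filament of the synaptonemal complex of meiosis, had 1.85 and 3.91 CPM in c.del, against 19.1 and 14.5 CPM in F121-9, a log2 difference of -2.58 (SE 0.51, limma adjusted p = 0.314). On the cast copy, which was high in c.del replicate 1 over the chromosome, Sycp1 had 2.98 and 5.67 CPM in c.del, against 35.3 and 26.1 CPM in F121-9. As the mean of both copies Sycp1 was also low in the other lettered libraries, at 0.651 to 5.24 CPM with c in the label and 0.879 to 1.66 CPM without it. In 680kinv, 100kdel, 245kdel and 4k.b.c it had 18.9, 41.5, 42.7 and 3.85 CPM. Sohlh2, a factor of germ cell differentiation, had 3.70 and 6.18 CPM in c.del, against 15.3 and 16.2 CPM in F121-9. Tbx15, a T-box factor, had 8.67 and 4.23 CPM in c.del, against 19.9 and 14.9 CPM in F121-9.

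Frem2, a basement membrane protein, had 14.1 and 9.85 CPM in c.del, against 3.33 and 4.02 CPM in F121-9. In c.del replicate 1 that level came from the cast copy, with 25.9 CPM on cast and 2.34 CPM on 129. Slc25a44, a mitochondrial carrier, had 21.8 and 21.8 CPM in c.del, against 9.94 and 9.33 CPM in F121-9. The non-coding gene Platr4 had 38.6 and 38.7 CPM in c.del, against 14.0 and 19.7 CPM in F121-9. The part of the copy share of replicate 1 in these levels was not tested.

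Gene lists were described by counts, since no member of any list passed in limma. The counts without overlap are to be read against 23.3% higher and 14.8% lower over all tested genes. Genes of FGF and ERK feedback, which are transcribed when the pathway is active and damp it, had the highest median of the 22 lists. All 12 tested of 14 had a positive log2 difference, 9 were higher without overlap, and the median was 1.16, against 0.11 over all tested genes. The median was 0.66 after centring within bins of gene width. Spry4, a feedback inhibitor, had 7.41 and 50.4 CPM in c.del, against 4.98 and 1.44 CPM in F121-9. Etv1, a factor induced by the pathway, had 123 and 213 CPM in c.del, against 109 and 51.0 CPM in F121-9. Spred1, another inhibitor, had 204 and 138 CPM in c.del, against 126 and 89.9 CPM in F121-9. Etv4, also pathway-induced, had 3.99 and 8.51 CPM in c.del, against 1.66 and 0.28 CPM in F121-9. The F121-9 libraries differed from each other by more than 2-fold in Spry4, Etv4 and Etv1.

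Of 22 p53 genes, 21 had a positive difference, 11 were higher without overlap, 1 was lower, and the median was 0.61 (0.32 after centring by width). Polk, a translesion polymerase, had 50.7 and 55.3 CPM in c.del, against 30.5 and 36.1 CPM in F121-9, and Fas, a death receptor, had 1.29 and 2.55 CPM in c.del, against 0.598 and 0.386 CPM in F121-9. Trp53inp1, a stress-induced p53 cofactor, had 40.1 and 56.1 CPM in c.del, against 31.7 and 31.2 CPM in F121-9. The lower member was Rrm2b, a ribonucleotide reductase subunit, with 5.53 and 4.21 CPM in c.del, against 7.97 and 9.62 CPM in F121-9.

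Germline and meiosis genes had mostly negative differences. Of 29 tested, 22 had a negative difference, 10 were lower and 4 higher without overlap, and the median was -0.43 (-0.57 after centring by width). Smc1b, the meiotic cohesin subunit, had 2.90 and 5.75 CPM in c.del, against 12.3 and 26.6 CPM in F121-9. Asz1, a protein of the piRNA pathway, had 0 and 0.0308 CPM in c.del, against 0.662 and 0.566 CPM in F121-9. Syce2, a synaptonemal complex protein, was on the other side, with 16.5 and 15.4 CPM in c.del, against 7.94 and 8.85 CPM in F121-9. In the other lettered libraries Smc1b had 1.53 to 3.73 CPM with c in the label and 0.638 to 3.28 CPM without it. Asz1 had 0 to 0.13 CPM with c and 0 to 0.0431 CPM without, and Syce2 had 6.08 to 10.3 CPM and 6.70 to 13.7 CPM. The low levels of Smc1b and Asz1 were thus not particular to c.del.

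DNA replication genes had 21 of 51 higher and 1 lower without overlap and a median of 0.30 (0.14 after centring by width). Pola2, a subunit of DNA polymerase alpha, had 32.1 and 42.0 CPM in c.del, against 19.5 and 22.6 CPM in F121-9. Cdc6, a licensing factor, had 36.8 and 58.8 CPM in c.del, against 32.2 and 29.6 CPM in F121-9. Hypoxia and glycolysis genes had 10 of 26 higher and none lower without overlap and a median of 0.29 (0.11 after centring by width). Of the 26, 18 had a positive and 8 a negative difference. Pkm, the pyruvate kinase gene, had 213 and 208 CPM in c.del, against 143 and 129 CPM in F121-9. Pdk1, which restrains pyruvate entry into the citric acid cycle, had 92.6 and 53.8 CPM in c.del, against 32.4 and 42.5 CPM in F121-9. Gapdh and Eno1 of glycolysis had 6.52 and 23.1 CPM and 57.4 and 121.1 CPM in c.del, against 3.80 and 3.31 CPM and 43.9 and 43.8 CPM in F121-9. For Gapdh and Eno1 the higher c.del value was that of replicate 2.

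Genes of the pluripotent states were described by 4 lists. The 9 markers of embryonic stem cells had a median of 0.07, with 2 higher and none lower without overlap, and summed to 1534 and 1963 CPM in c.del, against 1817 and 1612 CPM in F121-9. The 11 tested naive state factors also had a median of 0.07, and the 14 core pluripotency genes one of 0.18. Among the core genes Lin28a, an RNA-binding protein that blocks let-7, had 11.2 and 10.98 CPM in c.del, against 5.96 and 3.04 CPM in F121-9. The 11 tested formative and primed state genes had a median of 0.65 (0.37 after centring by width), with 5 higher and none lower without overlap. Cdh2, the cadherin of primed cells, had 48.9 and 50.9 CPM in c.del, against 34.1 and 24.9 CPM in F121-9. Of these genes 9 had a positive and 2 a negative log2 difference, the latter being Otx2 (-0.52) and Dnmt3a (-0.29). Otx2 had 0.216 and 0.576 CPM in c.del, against 0.499 and 0.632 CPM in F121-9. Fgf5 overlapped, with 0.241 and 0.604 CPM in c.del, against 0.263 and 0.225 CPM in F121-9.

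Chromatin genes were mixed. Of 27 Polycomb genes tested, 5 were higher and 7 lower without overlap, with a median of 0.03. Yaf2, a subunit of variant PRC1, had 8.63 and 11.9 CPM in c.del, against 22.2 and 33.3 CPM in F121-9, and Jarid2, a partner of PRC2, had 1072 and 1267 CPM in c.del, against 1854 and 1539 CPM in F121-9. Of 10 DNA methylation genes, 3 were higher and 2 lower, with a median of 0.08, and Tet3, a methylcytosine dioxygenase, had 7.02 and 6.07 CPM in c.del, against 14.1 and 20.7 CPM in F121-9. Of 12 CTCF and cohesin genes, 2 were higher and 2 lower, with a median of -0.05, and the higher ones included Esco2, a cohesin acetyltransferase, with 88.8 and 84.0 CPM in c.del, against 63.3 and 65.9 CPM in F121-9.

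Of 30 imprinted genes tested, 7 were higher and 5 lower without overlap, with a median of 0.09. Mest, which overlaps Mir335, had 15.0 and 21.5 CPM in c.del, against 5.96 and 5.07 CPM in F121-9. Grb10, an adaptor that inhibits growth factor signalling, had 2.74 and 3.43 CPM in c.del, against 9.31 and 11.1 CPM in F121-9. Mirg, a host transcript of microRNAs, had 45.2 and 47.5 CPM in c.del, against 26.4 and 30.6 CPM in F121-9.

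Medians near 0 changed sign with the scaling. After centring by width they were -0.11 for core pluripotency, -0.031 for embryonic stem cell markers, -0.011 for Polycomb, -0.012 for DNA methylation, -0.0035 for imprinted and -0.09 for cholesterol synthesis genes.

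The other lists had medians of 0.53 for 12 immediate early genes, -0.60 for 4 genes of the 2-cell stage, -0.30 for 19 genes of the ATF4 amino acid response and 0.08 for 23 of cholesterol synthesis. After centring by width the immediate early median was 0.036, the 2-cell stage median -1.09 and the ATF4 median -0.38. Of the 12 immediate early genes, 1 was higher and none lower without overlap. Trib3, an ATF4 target, had 1.18 and 2.45 CPM in c.del, against 3.38 and 5.43 CPM in F121-9. Markers of other cell types were low in all 4 libraries. The 8 fibroblast or feeder markers summed to 0.952 and 1.27 CPM in c.del, against 1.13 and 1.52 CPM in F121-9. The 8 markers of primitive endoderm summed to 13.6 and 24.9 CPM in c.del, against 26.8 and 21.2 CPM in F121-9, with Foxa2 at 0. The sums were 1.22 and 5.40 CPM in c.del, against 5.75 and 2.71 CPM in F121-9, for 8 mesoderm markers, with Mesp1 at 0. They were 5.07 and 7.54 CPM in c.del, against 4.61 and 2.83 CPM in F121-9, for 8 neuroectoderm markers, with Neurog2, Zic1 and Hes5 at 0. They were 9.36 and 13.3 CPM in c.del, against 7.85 and 10.2 CPM in F121-9, for 9 trophoblast markers, with Hand1 at 0.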

How the data were processed

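Bru-seq libraries were strand-specific, made from 300 ng of captured RNA and read as 100 bp single ends, per the labels' protocols. The submitters' processing notes name Bowtie2, bedtools and mm10. Of these tools no version is given in the sources used here. Clipping of the reads is recorded in the names per the file headers, and the reads had a mapping quality of at least 10 and were split by homozygous variants into reference (129) and variant (cast) reads. The values deposited by the authors are CPM per copy: each column sums to 1000000 over all lines, although the table is named for RPKM, the unit the design had allowed for, and the values show no length scaling. Steps of the smallest value gave whole reads within 0.01 for 100% of values, and edgeR and DESeq2 were run on them.

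The widest line per symbol was used. limma 3.58.1 (R 4.3.3, trended eBayes, two-sided) was fitted to log2(CPM + 0.1), so that differences of low genes are understated, with a mean per group over abc.del, ab.del, c.del and F121-9 (8 libraries, 4 residual degrees of freedom) and no further scaling. The 129 minus cast fit used the per-library difference of the log2 values. The site c fit had additive terms for a, b and c. edgeR 4.0.16 (quasi-likelihood) and DESeq2 1.42.0 were alternatives. Python 3.11.15 with pandas 2.3.3, numpy 2.4.6, scipy 1.17.1 and matplotlib 3.10.9 did the rest, and the fits were tested on simulated data.

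Named genes were those within 1 Mb of the locus past the filter of 0.2 CPM, the 10 in each direction outside chromosome 3 and the 3 on it with the smallest p among genes without overlap and a mean CPM of at least 1, up to 4 members of each of 22 lists, and genes passing in the fits per copy or for site c, of which there were none. The genes and lists were chosen with earlier results of these data known, and nothing here is independent support for those. Nothing in the labels says whether the libraries of a group came from separate cultures or clones, so the p-values cover only the spread of these libraries. In the other groups of the fit that spread may be technical. In c.del the 129 share of reads was 99.8% and 13.2% on the X and 33.8% and 53.5% on chromosome 3. The c.del libraries were therefore not technical repeats of the same culture. Of the c.del libraries, replicate 2 was in the second run of sample numbers, which has no F121-9 library.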

Additional observations from a re-analysis of the deposited data

Results flagged for a closer look

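The X chromosome, which was left out of the main tests, had copy shares in c.del on opposite sides of those in the parental libraries. In c.del replicate 1, 99.8% of X-linked reads came from 129, above F121-9, and in c.del replicate 2 13.2% did, below F121-9, against 49.7% and 52.6% in F121-9. The level of the X was lower in both c.del libraries. Over 384 X-linked genes the median log2 difference from F121-9 was -0.62 in replicate 1 and -0.71 in replicate 2. In replicate 1 the median was -6.67 on the cast copy and 0.45 on the 129 copy. In replicate 2 it was -6.18 on the 129 copy and 0.21 on the cast copy. Whether the X content of the clones bears on the autosomal levels was not tested.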

How the results depend on the processing

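No gene passed in limma as reported, and the number of genes past an adjusted p of 0.05 depended on the setting. Across the autosomes as the mean of both copies it was 3 at a pseudocount of 1, 9 without a filter, 1 each with median centring, with only c.del and F121-9, with edgeR, with quantile normalization and with eBayes without trend, 7 with X-linked genes included, 153 with the deposit block as a covariate and 159 with DESeq2. On chromosome 3 it was 1 without a filter, 13 with the deposit block and 12 with DESeq2. On the 129 copy it was 3 at a pseudocount of 1, 28 without a filter, 2 with median centring, 1 with only c.del and F121-9, 143 with the deposit block, 7 with centring within gene width bins and 2 with edgeR. On the cast copy it was 19 without a filter, 3 with median centring, 110 with the deposit block, 2 with centring within gene width bins and 4 with edgeR. The counts with the deposit block come from a term that rests on c.del and ab.del alone and takes up part of the spread between the c.del libraries. Leaving out 1 library at a time gave 0 to 3 genes as the mean of both copies, 0 to 25 on the 129 copy, 0 to 49 on the cast copy, and 0 on chromosome 3 and for site c. The highest of these counts came without c.del replicate 2, which leaves only libraries of the first run of sample numbers in the contrast and takes the lone c.del library to vary like the other groups. Centring within gene width bins was added after the width shift was seen, as were edgeR for site c and the alternatives for 129 minus cast. Of 1611 values of named genes under these settings, 1499 kept direction and side of the threshold, 67 kept direction and passed it, and 45 changed sign, with the cause not tested. All 20 genes named outside chromosome 3 kept their direction in every setting run. They were chosen for groups without overlap, so leaving out a library could not reverse their direction, and this is no measure of robustness. No paired analysis was possible because the numbers of the c.del libraries come from sample order alone, so no replicate block could be formed with F121-9.

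The 45 sign changes were all at genes of the locus, whose log2 differences as reported were -0.03 to 0.25, and 0.50 for Trat1. With median centring the log2 difference was -0.093 for Dppa4 and -0.086 for Cip2a (both copies), -0.025 and -0.16 for Dppa4 (129 and cast), -0.056 for Dzip3 (129), and -0.12 and -0.066 for Cip2a (129 and cast). With the deposit block it was -0.036 for Dppa4 and -0.31 for Dppa2 (both copies), 0.083 for Morc1 (cast), -0.068 and -0.33 for Dppa2 (129 and cast) and -0.072 for Dppa4 (cast). With centring within gene width bins it was -0.34, -0.20 and -0.053 for Dppa4, Dppa2 and Cip2a (both copies), 0.044 for Morc1 (cast), -0.056 and -0.23 for Dppa2, -0.15 and -0.40 for Dppa4, and -0.051 and -0.0033 for Cip2a (129 and cast). With edgeR it was -0.043 for Dppa4 and -0.028 for Cip2a (both copies), -0.064 for Dppa4 (cast) and -0.067 for Cip2a (129). With quantile normalization it was -0.056 for Dppa4, and with DESeq2 -0.054 for Dppa4 and -0.036 for Cip2a. Leaving out 1 library at a time gave -0.0595 to 0.22 for Dppa4, -0.29 to 0.75 for Dppa2, -0.12 to 1.12 for Trat1 and -0.065 to 0.24 for Cip2a (both copies). It gave -0.31 to 0.81 and -0.27 to 0.64 for Dppa2, -0.044 to 0.36 and -0.071 to 0.11 for Dppa4, -0.17 to 0.29 and -0.0059 to 0.24 for Cip2a (129 and cast), and -0.25 to 0.18 for Morc1 (cast).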

Other observations

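In the edited lines left out of the comparisons above, the 129 copy of Morc1 had 191 CPM in 680kinv, 285 CPM in 100kdel, 15.4 CPM in 245kdel and 52.8 CPM in 4k.b.c, with 1 library each, against 251 and 294 CPM in F121-9. The cast copy had 255 to 358 CPM in these lines, against 299 and 295 CPM in F121-9. Dppa2, the partner gene of Dppa4, had 3 reads (0.175 CPM) on the 129 copy in 100kdel, and in 4k.b.c it was the cast copy that was low, with 4 reads (0.387 CPM).

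Copy shares away from those of F121-9 on a whole chromosome were also seen outside c.del. The 129 share of reads was 36.3% on chromosome 3 in ac.del, against 53.5% and 53.4% in F121-9. On chromosome 8 it was 35.7% in 4k.b.c and 35.1% in a.del, against 51.7% and 52.7% in F121-9. On the X it was 99.8% in ac.del and in b.del, 11.3% in bc.del, and between 1.05% and 1.12% in abc.del, ab.del, 4k.b.c and a.del, against 49.7% and 52.6% in F121-9. In 680kinv, 100kdel and 245kdel the X share was 51.3%, 52.5% and 55.6%.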
